A study of Homo sapiens with 18 samples.

Results

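*CLEC14A*, *TMEM100* and *PEAR1* encode membrane proteins best known from the vascular endothelium, and they are described here in leukemia cell lines. They are 3 of the 26941 genes in the count tables. The 3 genes were chosen by their response to *SOX11* siRNA in these samples: genes known from endothelium whose level was lower with the siRNA in at least 1 line, by a rule with no numeric threshold. Their differences between *SOX11* siRNA and control siRNA are therefore given as a description, without a p-value.

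RNA was sequenced from REH, 697 and RCH-ACV, which are established lines of B-cell acute lymphoblastic leukemia (B-ALL). In each line 3 samples received siRNA against *SOX11* and 3 received a non-specific control siRNA, all at 300 nM by nucleofection, and RNA was taken at 48 h. The sample titles say KO, but the treatment was a transient siRNA knockdown and no gene was deleted. Each line is 1 cell culture model, and no sorting of the cells is described. The study describes the 3 samples of a group as biological replicates.

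CLEC14A is a single-pass membrane protein of the group XIV C-type lectins, a small family with CD93, thrombomodulin and CD248, and it binds the matrix protein multimerin 2. TMEM100 is a small membrane protein that endothelial cells switch on in response to BMP9 and BMP10 through the receptor ALK1. PEAR1, platelet endothelial aggregation receptor 1, carries EGF-like repeats and signals when platelets touch each other. SOX11 is a transcription factor of the SoxC group with an HMG box that binds DNA.

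In hg19 coordinates, *CLEC14A* lies at chr14:38723205-38725298 on the minus strand and consists of 1 exon of 2094 bases (counted on NM_175060). *TMEM100* lies at chr17:53796988-53809482 on the minus strand, with 2 exons and a transcript of 1755 bases (counted on NM_018286). *PEAR1* lies at chr1:156863490-156886221 on the plus strand, with 23 exons and a transcript of 4874 bases (counted on NM_001080471). Exon numbers and lengths are those of the canonical GENCODE transcript, which need not match the RefSeq entry that was counted. *CLEC14A* overlaps 1 other RefSeq gene, LOC112268136. The libraries were made with a stranded kit, and the strand setting of the counting is not given in the sources used here, so reads of the overlapping pair may not have been kept apart.

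Because the siRNA lowers a transcription factor, the stretch around the start of the gene is shown where RefSeq gave it, from 250 bases before the start to 50 bases after it. A promoter entry matched 2 of the 3 genes, and *TMEM100* had none. The sequences are from RefSeq on GRCh38.p14, 5′ to 3′ along the gene, and capitals mark matches to the words searched below.
CLEC14A, chr14:38256044-38256343, minus strand: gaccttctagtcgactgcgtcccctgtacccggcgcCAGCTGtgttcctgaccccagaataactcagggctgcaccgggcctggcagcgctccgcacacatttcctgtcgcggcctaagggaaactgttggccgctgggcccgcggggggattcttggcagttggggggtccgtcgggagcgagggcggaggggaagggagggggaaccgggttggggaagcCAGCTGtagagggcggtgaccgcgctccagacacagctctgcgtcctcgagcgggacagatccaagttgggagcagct
PEAR1, chr1:156893468-156893767, plus strand: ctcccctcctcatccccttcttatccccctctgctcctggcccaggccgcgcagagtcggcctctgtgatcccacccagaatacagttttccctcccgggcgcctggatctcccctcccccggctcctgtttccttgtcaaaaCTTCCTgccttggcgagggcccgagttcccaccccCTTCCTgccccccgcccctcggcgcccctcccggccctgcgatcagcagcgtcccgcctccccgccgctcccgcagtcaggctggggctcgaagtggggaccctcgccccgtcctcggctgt

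Both stretches were rich in G and C, at 66.7% in *CLEC14A* and 70% in *PEAR1*, against a median of 58.7% over 35116 promoters of the same length. They were searched on both strands for short core words, which were chosen with these sequences in view. *CLEC14A* held the E-box CAGCTG 2 times, a word present in 17.9% of all promoters. *PEAR1* held the ETS core AGGAAG 2 times, read on the other strand as CTTCCT, and the ETS words CCGGAA or AGGAAG were in 45.4% of promoters. Neither stretch held a SOX core, which was the word ACAAAG or the word AACAAT or the partly overlapping word ACAATG and was found in 29.1% of promoters. The PBX core TGATTG, present in 12.5% of promoters, and the GATA core AGATAA, present in 10.3%, were likewise not matched. These are matches of letters in a short window and say nothing about binding.

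The total count on genes lay between 7039594 and 16592492 per sample, the highest being RCH-ACV *SOX11* siRNA replicate 2. With 3 counts as the least taken to show a gene, the lowest visible level lay between 0.179 and 0.440 CPM (counts scaled to TMM library size), a floor that covers counting error only. The lines carried B-cell precursor markers, with 9 or 10 of 10 such genes at 3 counts or more in every library. Their summed level was 4178 to 4333 CPM in REH controls and 4589 to 4683 CPM with *SOX11* siRNA. It was 2647 to 2698 CPM and 2351 to 2422 CPM in 697, and overlapped in RCH-ACV. The largest rise among these markers in REH was that of *MME*, from a mean of 1132 to 1444 CPM. *EBF1* went from 356 to 325 CPM there and *VPREB3* from 132 to 126.5 CPM. *SOX11* itself was at 98.6, 97.3 and 93.0 CPM in the control samples of REH and at 47.7, 53.3 and 61.4 CPM with its siRNA. In 697 it went from 59.8, 59.7 and 59.3 CPM to 32.5, 31.7 and 30.8 CPM, and in RCH-ACV from 124, 136 and 133 CPM to 81.5, 78.7 and 86.7 CPM. *SOX11* fell in each line by edgeR's quasi-likelihood test, with REH at a log2 fold change of -0.83 (SE 0.06, adjusted p = 1.45e-08), 697 at -0.91 (SE 0.07, adjusted p = 0.000221) and RCH-ACV at -0.67 (SE 0.05, adjusted p = 2.46e-06). Between 53.1% and 62.7% of its control level remained.

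*CLEC14A* was the most abundant of the 3 genes and was read in 697 and RCH-ACV but not in REH. The control samples of 697 held 66.7, 68.8 and 67.3 CPM (counts of 544, 469 and 498), and those with *SOX11* siRNA held 33.5, 27.1 and 27.1 CPM (264, 234 and 242 counts). In RCH-ACV the control samples held 64.2, 63.1 and 63.8 CPM (564, 486 and 548 counts), and those with *SOX11* siRNA held 32.4, 36.95 and 39.3 CPM (257, 618 and 360 counts). In both lines every sample with *SOX11* siRNA lay below every control sample, and the control samples lay close together. The 618 counts of *SOX11* siRNA replicate 2 came from the deepest library and scaled to 36.95 CPM. In REH all 6 libraries held 0 counts of *CLEC14A*, so its level there was below the floor. Since RNA was taken from whole cultures, fewer cells that carry a transcript and less of it per cell cannot be told apart.

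The log2 fold change of *CLEC14A* was -1.21 in 697 (SE 0.09, 3 samples against 3) and -0.81 in RCH-ACV (SE 0.07), so that 43.1% and 57.2% of the control level were left. In 697 3 of 12169 tested genes had a lower log2 fold change than *CLEC14A*, and in RCH-ACV 57 of 12963 did. These ranks, and those given below for *TMEM100* and *PEAR1*, follow from how the genes were selected on this contrast. Nothing is read from them.

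*TMEM100* showed a steeper order between the lines. It was highest in the control samples of RCH-ACV, at 40.4, 43.6 and 31.8 CPM (counts of 355, 336 and 273), against 18.1, 14.47 and 16.3 CPM with *SOX11* siRNA (143, 242 and 149 counts). In 697 it was low, at 2.70, 2.35 and 3.38 CPM in the control samples (22, 16 and 25 counts) and 2.03, 1.62 and 1.35 CPM with *SOX11* siRNA (16, 14 and 12 counts). The 2 groups did not overlap in either line, although in 697 the highest *SOX11* siRNA sample and the lowest control sample were close. All 6 REH libraries held 0 counts. *TMEM100* has 2 RefSeq transcripts in the tables, whose counts were equal in 697 and differed by at most 6 reads in RCH-ACV (355 and 351 in control replicate 1), so the choice of transcript hardly moved its values.

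The log2 fold change of *TMEM100* was -1.27 in RCH-ACV (SE 0.11), which left 41.4% of the control level, and 7 of 12963 tested genes were lower. In 697 it was -0.76 (SE 0.28), or 59.0% of the control level, with 12 to 25 counts a sample, and 51 of 12169 tested genes were lower. The difference between the lines was not tested, because the gene was chosen on these effects.

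*PEAR1* was scarce in every line, and its pattern differed from that of the other 2 genes. REH held 1.81, 1.48 and 2.59 CPM in the control samples (19, 19 and 20 counts) and 0.672, 0.790 and 0.957 CPM with *SOX11* siRNA (7, 6 and 10 counts). The REH groups did not overlap. RCH-ACV held 3.76, 1.56 and 3.14 CPM in the control samples (33, 12 and 27 counts) and 3.16, 3.11 and 3.38 CPM with *SOX11* siRNA (25, 52 and 31 counts), and these groups overlapped. In 697 the control samples held 0, 0 and 1 count and the *SOX11* siRNA samples 1, 0 and 0, all below the floor of 3 counts, so no difference was fitted.

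The log2 fold change of *PEAR1* was -1.20 in REH (SE 0.34), or 43.7% of the control level, and 2 of 12787 tested genes were lower. In RCH-ACV it was 0.16 (SE 0.25), with 10662 of 12963 tested genes lower. It turned to -0.11 when control replicate 2, the sample with 12 counts, was left out. *PEAR1* thus was lower with the siRNA in REH, where *CLEC14A* and *TMEM100* were not read, and was not separated from its controls in RCH-ACV, where both were lower.

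**Figure D1:**
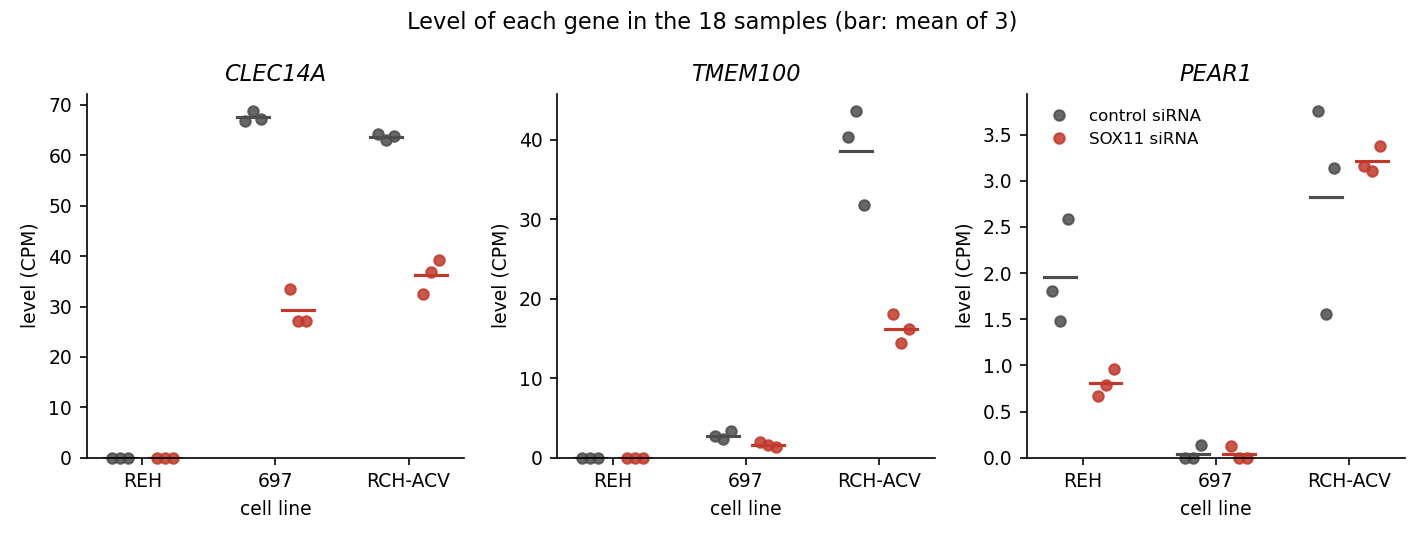
Level of *CLEC14A*, *TMEM100* and *PEAR1* in CPM (vertical axis, linear, from 0, with its own scale in each panel) in the 3 lines, with 1 point per sample and a bar at the mean of 3 samples, in grey for control siRNA and red for *SOX11* siRNA. *CLEC14A* and *TMEM100* sit at 0 in REH and below their controls in 697 and RCH-ACV, and *PEAR1* sits below its controls in REH.

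Of the 3 genes, REH had 1 tested after the filter on low counts, 697 had 2 and RCH-ACV had 3. *PEAR1* passed the adjusted threshold in REH as lower, where 2.01% of all tested genes were lower. *CLEC14A* passed in 697, against 0.477% of genes lower, and *CLEC14A* and *TMEM100* passed in RCH-ACV, against 3.92%. Genes that were higher made up 2.64% of those tested for REH, 0.0822% for 697 and 3.59% for RCH-ACV. These counts follow from how the genes were selected on this contrast, and nothing is read from them.

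**Figure D2:**
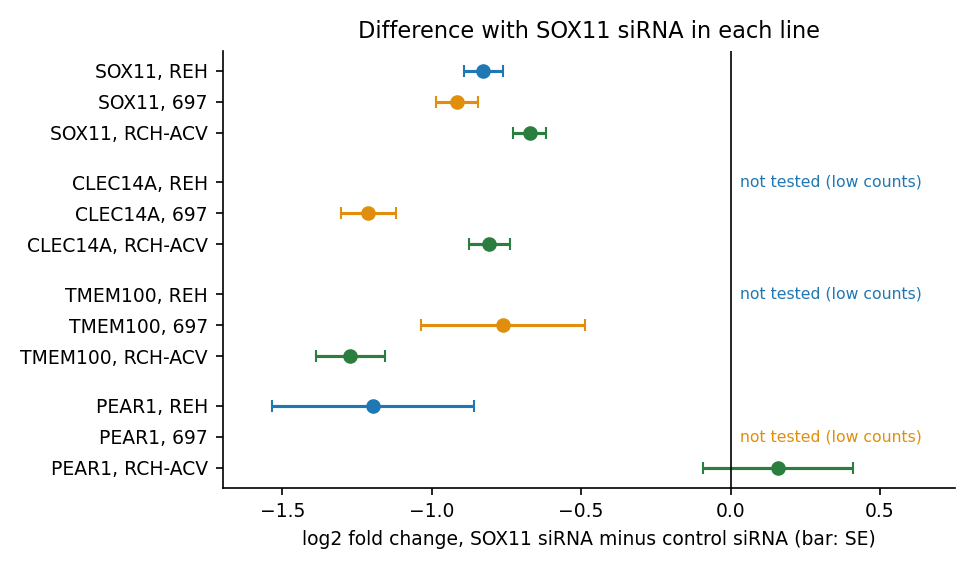
Log2 fold change of *SOX11* siRNA against control siRNA (horizontal axis) for *SOX11* and the 3 genes in each line, with bars of 1 SE from the edgeR fit (3 samples against 3). The 4 points of *CLEC14A* and *TMEM100* lie at -0.76 or lower, *PEAR1* lies at -1.20 in REH and at 0.16 in RCH-ACV, and 3 combinations had too few counts to be fitted.

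The control level of each gene was then compared between the lines, a contrast the choice of genes did not use, although the same control samples entered it. The 9 control samples were fitted with edgeR's quasi-likelihood test. Lines differ in most genes: 64.2% of 13686 tested genes differed between RCH-ACV and 697, 73.7% between RCH-ACV and REH, and 76.2% between 697 and REH. Most genes thus differed between any pair of lines, and line and library batch cannot be told apart.

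*CLEC14A* was at 67.6 ± 1.08 CPM in 697 (SD, n = 3) and 63.7 ± 0.549 CPM in RCH-ACV (SD, n = 3), a log2 difference of -0.08 for RCH-ACV minus 697 (SE 0.06, adjusted p = 0.265) that did not pass. Against REH, where it was not read, *CLEC14A* was at least 223.5-fold higher in 697 and at least 210.6-fold higher in RCH-ACV, with REH set to 3 counts a library. These bounds have no p-value here, because a gene at 0 in 1 line enters the fit only through the lines where it was read.

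*TMEM100* was at 38.6 ± 6.13 CPM in RCH-ACV (SD, n = 3) and 2.81 ± 0.522 CPM in 697 (SD, n = 3), a 13.6-fold difference (log2 3.77, SE 0.18, adjusted p = 1.26e-11). It was at least 127.6-fold higher in RCH-ACV than in REH and at least 9.28-fold higher in 697 than in REH, as a description. As a description, *TMEM100* was higher in RCH-ACV than in 697, a pair in which the difference of *CLEC14A* did not pass.

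*PEAR1* was at 2.82 ± 1.13 CPM in RCH-ACV (SD, n = 3) and 1.96 ± 0.568 CPM in REH (SD, n = 3), a log2 difference of 0.62 (SE 0.31, adjusted p = 0.0760) that did not pass. This pair depended on single samples: it was 0.89 (adjusted p = 0.0105) without RCH-ACV control replicate 2 and 0.82 (adjusted p = 0.0409) without REH control replicate 3, and over the 12 alternatives that used control samples its adjusted p ranged from 0.0105 to 0.379. In 697, with 1 count over the 3 control samples, the ratio of *PEAR1* was 64.2 for RCH-ACV over 697 (95% counting interval 11.2 to 2572) and 41.8 for REH over 697 (7.21 to 1678), as a description.

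Per length of transcript the 3 genes can be set side by side in RPKM (reads scaled to transcript length and library size). It was computed from the counts and the transcript lengths above, with 9002 bases for *SOX11*. In the control samples of RCH-ACV the levels were 30.4 ± 0.262 RPKM for *CLEC14A*, 22.0 ± 3.50 RPKM for *TMEM100*, 0.578 ± 0.233 RPKM for *PEAR1* and 14.6 ± 0.675 RPKM for *SOX11* (SD, n = 3). In those of 697 they were 32.3 ± 0.516 RPKM for *CLEC14A*, 1.60 ± 0.298 RPKM for *TMEM100* and 6.62 ± 0.0297 RPKM for *SOX11*. In those of REH *PEAR1* was at 0.402 ± 0.117 RPKM. On this scale *CLEC14A* lay above *SOX11* itself in both lines that express it, and *PEAR1* was far below the other 2 genes in RCH-ACV. The order depends on the long *SOX11* transcript. In CPM the RCH-ACV controls held more *SOX11* (131) than *CLEC14A* (63.7).

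The endothelial label of the 3 genes was set against 6 defining endothelial markers. *PECAM1* is an adhesion molecule of endothelial junctions that leukocytes and platelets also carry, *CDH5* is the endothelial cadherin, *VWF* carries platelets to the vessel wall, *KDR* is the main VEGF receptor, *TEK* the angiopoietin receptor and *CLDN5* a tight junction protein. Their summed level was 1.68 to 3.44 CPM over the 6 REH libraries, 3.82 to 9.64 CPM over those of 697 and 5.35 to 10.7 CPM over those of RCH-ACV. *CDH5*, *KDR* and *TEK* were at 0 in all REH libraries, *CDH5* was at 0 in all RCH-ACV libraries and *TEK* was at 0 in all 697 libraries. *PECAM1* made up most of the sum, at 4.71 CPM in 697 and 4.51 CPM in RCH-ACV controls, and the other 5 markers had mean levels of 1.02 CPM or less in every group. The control samples of 697 and RCH-ACV thus held *CLEC14A* at 63.1 CPM or more, with *CDH5*, *VWF* and *TEK* at mean levels of 0.661 CPM or less in every group. *KDR* had too few counts to be fitted, at 1 to 3 counts in the control samples of 697 and RCH-ACV against 7 to 11 and 6 to 14 with *SOX11* siRNA. In RCH-ACV the summed level was 5.35 to 5.47 CPM in the control samples and 8.51 to 10.7 CPM with *SOX11* siRNA, opposite in direction to *CLEC14A* and *TMEM100*. Most of this rise was *PECAM1*, at 4.51 CPM in the control samples and 8.20 CPM with *SOX11* siRNA. Of the platelet and megakaryocyte markers, *PF4* and *PPBP* were at 0 in every library, and the list summed to 2.68 to 6.44 CPM. Of the myeloid markers, *MPO*, which encodes myeloperoxidase, fell in REH from 13.5 to 7.90 CPM (edgeR's quasi-likelihood test, log2 -0.78, SE 0.12, adjusted p = 0.000237). *MPO* made up most of the myeloid sum, which was 14.1 to 15.7 CPM in REH controls and 8.82 to 10.0 CPM with *SOX11* siRNA. The other myeloid markers in REH did not move together. *CSF1R* went from 0.602 to 0.906 CPM, *CD14* from 0.363 to 0.351 CPM and *LYZ* from 0.222 to 0.0758 CPM, and *ELANE* and *FCGR3A* were at 0. The part of *MPO* in the differences of *PEAR1* and the listed genes in REH was not tested.

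Other genes of the vessel wall and of the pathways of the 3 genes were read from 6 lists of 128 genes in all, of which 127 were in the tables. In REH 56 of them were tested, of which 5 fell and 1 rose by edgeR's quasi-likelihood test with adjusted p under 0.05. In 697 49 were tested, of which 1 fell and 0 rose. In RCH-ACV 55 were tested, of which 6 fell and 6 rose. These are shares of 8.93% lower for REH, 2.04% for 697 and 10.9% for RCH-ACV, beside the 2.01%, 0.477% and 3.92% of all tested genes given above. The shares that rose were 1.79% for REH, 0% for 697 and 10.9% for RCH-ACV, beside 2.64%, 0.0822% and 3.59% of all tested genes. The lists were chosen with earlier results of these data known. These shares and the counts by list below are therefore a description, and no enrichment is read from them. The median log2 fold change over the lists was -0.09 for REH, -0.04 for 697 and -0.03 for RCH-ACV, and over all genes it lay within 0.01 of 0 in each line.

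Of these 19 calls, 6 held under all 14 alternative settings. These were the fall of *TIE1* and *EFNB2* and the rise of *ITGB1* in REH, and the fall of *ERG* and *FLT1* and the rise of *PECAM1* in RCH-ACV. The other 13 were lost under at least 1 setting. In REH the count of 6 dropped to 3 without *SOX11* siRNA replicate 2. In 697 the only call was lost when any library other than *SOX11* siRNA replicate 3 was left out. In RCH-ACV the count of 12 went to 20 without *SOX11* siRNA replicate 3, to 7 without control replicate 3, to 6 without *SOX11* siRNA replicate 1 or control replicate 2, and to 5 without *SOX11* siRNA replicate 2 or control replicate 1.

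Of the endothelial transcription factors, 3 of 9 tested in RCH-ACV fell (3.92% of all genes did) and 0 rose, while DESeq2 called 1 of them. All 9 had a negative log2 fold change (median -0.36), from -1.14 for *PROX1* to -0.008 for *FLI1* (SE 0.04). Over all lists in RCH-ACV 34 of 55 tested genes were negative, and the median over all tested genes was 0.005. In REH 1 of 8 fell and DESeq2 called 0, and in 697 both tools called 1 of 8. *ERG*, the ETS factor that maintains endothelial identity and is also expressed in blood progenitors, fell from 124 to 86.6 CPM in RCH-ACV (log2 -0.52, SE 0.09, adjusted p = 0.00167) and from 46.0 to 32.4 CPM in 697 (log2 -0.51, SE 0.09, adjusted p = 0.0352). In REH *ERG* was far more abundant, at 448 CPM in the control samples and 432 CPM with *SOX11* siRNA (log2 -0.05, SE 0.04, adjusted p = 0.638), and a test of the difference between the 3 lines, chosen after seeing the data, did not pass (adjusted p = 0.0664). The 697 call was among those lost, with adjusted p between 0.0610 and 0.241 when the library left out was any but *SOX11* siRNA replicate 3. *SOX7*, a SoxF factor of vascular development, fell from 4.96 to 3.04 CPM in RCH-ACV (log2 -0.74, SE 0.19, adjusted p = 0.0260). *PROX1*, the lymphatic endothelial regulator, fell from 2.16 to 0.928 CPM there (log2 -1.14, SE 0.32, adjusted p = 0.0414) and was at 0 in REH and 697. With 7 to 25 counts a sample its call was lost under 6 of 13 alternatives (adjusted p between 0.0125 and 0.225 over the 13), the 6 including those that left out *SOX11* siRNA replicate 1 or 2 or control replicate 2 or 3. *MEF2C*, a MADS box factor abundant in B cells, fell in REH by 0.10 on the log2 scale (adjusted p = 0.0420).

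Endothelial identity genes went in both directions. In RCH-ACV 2 of 13 tested genes fell and 2 rose: *FLT1*, a VEGF receptor, by -0.29 (SE 0.06, adjusted p = 0.00563), *ESAM*, a junction adhesion molecule, by -0.33 (SE 0.09, adjusted p = 0.0395), *ICAM2*, a ligand of leukocyte integrins, by 0.30 (SE 0.07, adjusted p = 0.00955) and *PECAM1* by 0.88 (SE 0.15, adjusted p = 0.00204), all on the log2 scale. *PECAM1* went from 4.51 to 8.20 CPM, and its 3 *SOX11* siRNA samples lay above all 3 control samples. In REH 1 of 14 fell, the orphan receptor *TIE1*, from 8.46 to 5.17 CPM (log2 -0.75, SE 0.16, adjusted p = 0.00452). *TIE1* had a log2 fold change of -0.91 in RCH-ACV (SE 0.30, adjusted p = 0.0716) that did not pass. Of the 11 genes tested in 697, 0 passed, with 1 at an unadjusted p under 0.05 and 0 by DESeq2. *TIE1* and the ligand gene *SEMA3D* were known from the study's own results on these samples, so their calls are not independent evidence.

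The closest relatives and partners of *CLEC14A* did not pass in any line. Of the group XIV list of 6 genes, REH had 2 tested, 697 had 1 and RCH-ACV had 2. edgeR called 0 of them in each line, as did DESeq2, while 1, 1 and 2 had an unadjusted p under 0.05. *CD93*, the nearest relative in endothelium, was at 34.0 CPM in REH controls and 26.0 CPM in RCH-ACV controls, with log2 fold changes of -0.25 (SE 0.08, adjusted p = 0.0668) and -0.21 (SE 0.08, adjusted p = 0.135). *CD248*, endosialin, had log2 fold changes of -0.74 in 697 (SE 0.30, adjusted p = 0.538) and 0.20 in RCH-ACV (SE 0.06, adjusted p = 0.0724). *MMRN2*, the matrix ligand of CLEC14A, was at 0 in all 18 libraries. The REH line thus held *CD93* without *CLEC14A*, and 697 held *CLEC14A* with *CD93* at 0.0450 CPM in its control samples.

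The BMP9-ALK1 pathway that acts upstream of *TMEM100* in endothelium was present in part. *ACVRL1*, which encodes ALK1, had mean levels of 0.118 CPM or less in every group. *ENG*, the co-receptor endoglin, was at 161 CPM in 697 controls, 88.5 CPM in REH controls and 75.5 CPM in RCH-ACV controls. *BMPR2*, the type II receptor, was between 37.3 and 93.4 CPM in the controls of the 3 lines, and *ID1*, a usual target, was at 0.514 CPM or less. *ID3*, another usual target, was at 91.5 to 128.5 CPM in the controls, and *ID2* at 2.39 CPM in REH, 0.826 CPM in 697 and 3.0 CPM in RCH-ACV controls. Of the pathway genes tested, 0 of 15 passed in REH (6 at an unadjusted p under 0.05, 0 by DESeq2) and 0 of 14 in 697 (2 unadjusted, 0 by DESeq2). In RCH-ACV 1 of 14 passed: *ENG* rose by 0.22 on the log2 scale (SE 0.06, adjusted p = 0.0234), a call that DESeq2 did not make.

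The list around *PEAR1* held its relatives, its ligands and platelet receptors. Its relatives *MEGF10* and *MEGF11* had mean levels of 0.667 CPM or less in REH and RCH-ACV, whereas *MEGF11* was at 28.3 CPM in 697 controls. *MEGF6* was at 34.9 CPM in RCH-ACV controls, 3.32 CPM in REH controls and 0 in those of 697. In REH *ITGB1*, the integrin beta 1 chain, rose by 0.34 on the log2 scale (SE 0.05, adjusted p = 0.000149), the 1 call among 8 genes. In RCH-ACV *ITGB1* fell by 0.21 (SE 0.05, adjusted p = 0.00964) and *FERMT3*, the kindlin of blood cells, rose by 0.18 (SE 0.05, adjusted p = 0.0490), the 2 calls among 11 genes. In 697 0 of 6 genes passed, with 1 at an unadjusted p under 0.05 and 0 by DESeq2.

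Among angiogenic ligands, 3 of 9 tested genes fell in REH, where 2.01% of all genes did, and 2 of 6 rose in RCH-ACV, where 3.59% did. The list holds ligands that act on vessels and was not sorted by whether they promote or restrain vessel growth. DESeq2 called 1 in each of these lines. In REH these were *EFNB2*, the arterial ephrin ligand (log2 -0.27, SE 0.05, adjusted p = 0.00401), and the semaphorins *SEMA3A* (log2 -1.0, SE 0.25, adjusted p = 0.0206) and *SEMA3D* (log2 -0.56, SE 0.13, adjusted p = 0.0102). In RCH-ACV *VEGFA*, the main vascular growth factor, rose from 43.4 to 58.6 CPM (log2 0.44, SE 0.07, adjusted p = 0.000810), and *VEGFB* rose by 0.26 on the log2 scale (SE 0.08, adjusted p = 0.0485). In 697 0 of 9 passed, with 1 at an unadjusted p under 0.05 and 0 by DESeq2.

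**Figure D3:**
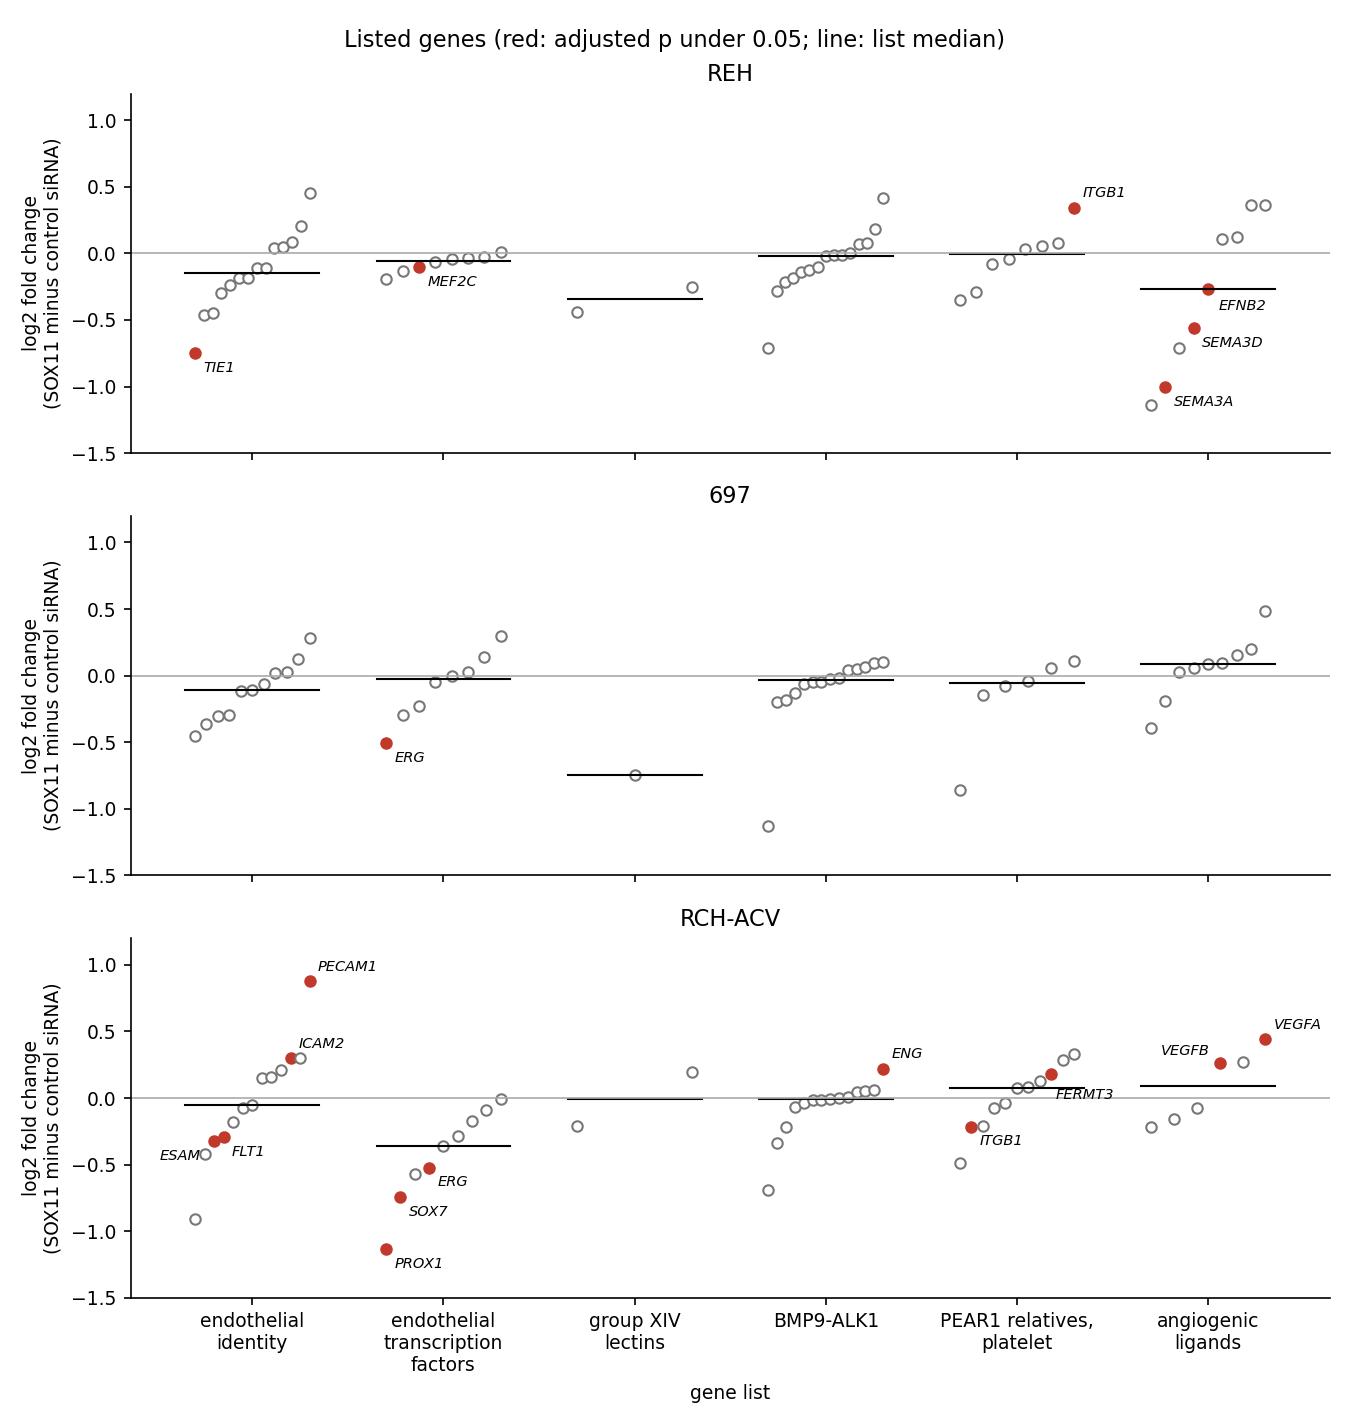
Log2 fold change of *SOX11* siRNA against control siRNA (vertical axis) for the listed genes tested in each line, by list (horizontal axis), with 1 circle per gene, red where the adjusted p was under 0.05, and a black line at the list median. Red circles number 6 for REH, 1 for 697 and 12 for RCH-ACV. There the 9 tested endothelial transcription factors lie between -1.14 (*PROX1*) and -0.008 (*FLI1*).

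The genes beside the 3 genes on the chromosome were read in the same fits. *SSTR1* and *LINC00639*, on the 2 sides of *CLEC14A*, had 0 counts in all 18 libraries. *MMD*, on the lower side of *TMEM100*, fell in RCH-ACV by 0.33 on the log2 scale (SE 0.06, adjusted p = 0.00390), and *PCTP*, on its higher side, had a log2 fold change of -0.25 there (SE 0.08, adjusted p = 0.0840). *LRRC71*, on the higher side of *PEAR1*, was at 0 in REH and RCH-ACV.

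For each of the 3 genes, the 3 genes with the most similar profile were named by the smallest root mean square difference of log2 CPM over the 18 samples, each gene centred on its own mean, among 13516 genes. *CLEC14A* was nearest to *NUDT11* (0.37), *IGLL5* (0.37) and *TMSB15A* (0.38). All 3 had mean levels of 0.0439 CPM or less in REH, and *NUDT11* stood at 73.4 CPM in 697 and 55.6 CPM in RCH-ACV controls. *TMEM100* was nearest to *AFAP1L1* (0.44), *TUBB3* (0.44) and *FAM210B* (0.49), which were highest in RCH-ACV and intermediate in 697. *TUBB3* was at 63.8 CPM in RCH-ACV controls and 6.16 CPM in 697 controls. *PEAR1* was nearest to *LIF* (0.39), *COBLL1* (0.43) and *RPS28* (0.43), which were lowest in 697. The 18 samples share 3 lines and their libraries, and the likeness is a description of these profiles. A near profile did not always mean a like response to the siRNA. For RCH-ACV the log2 fold change was 0.05 in *FAM210B* and -0.115 in *AFAP1L1*, beside -1.27 in *TMEM100*. For REH it was 0.12 in *COBLL1* and -0.15 in *RPS28*, beside -1.20 in *PEAR1*. *NUDT11*, *IGLL5*, *TMSB15A* and *TUBB3* had negative log2 fold changes in both 697 and RCH-ACV.

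**Figure D4:**
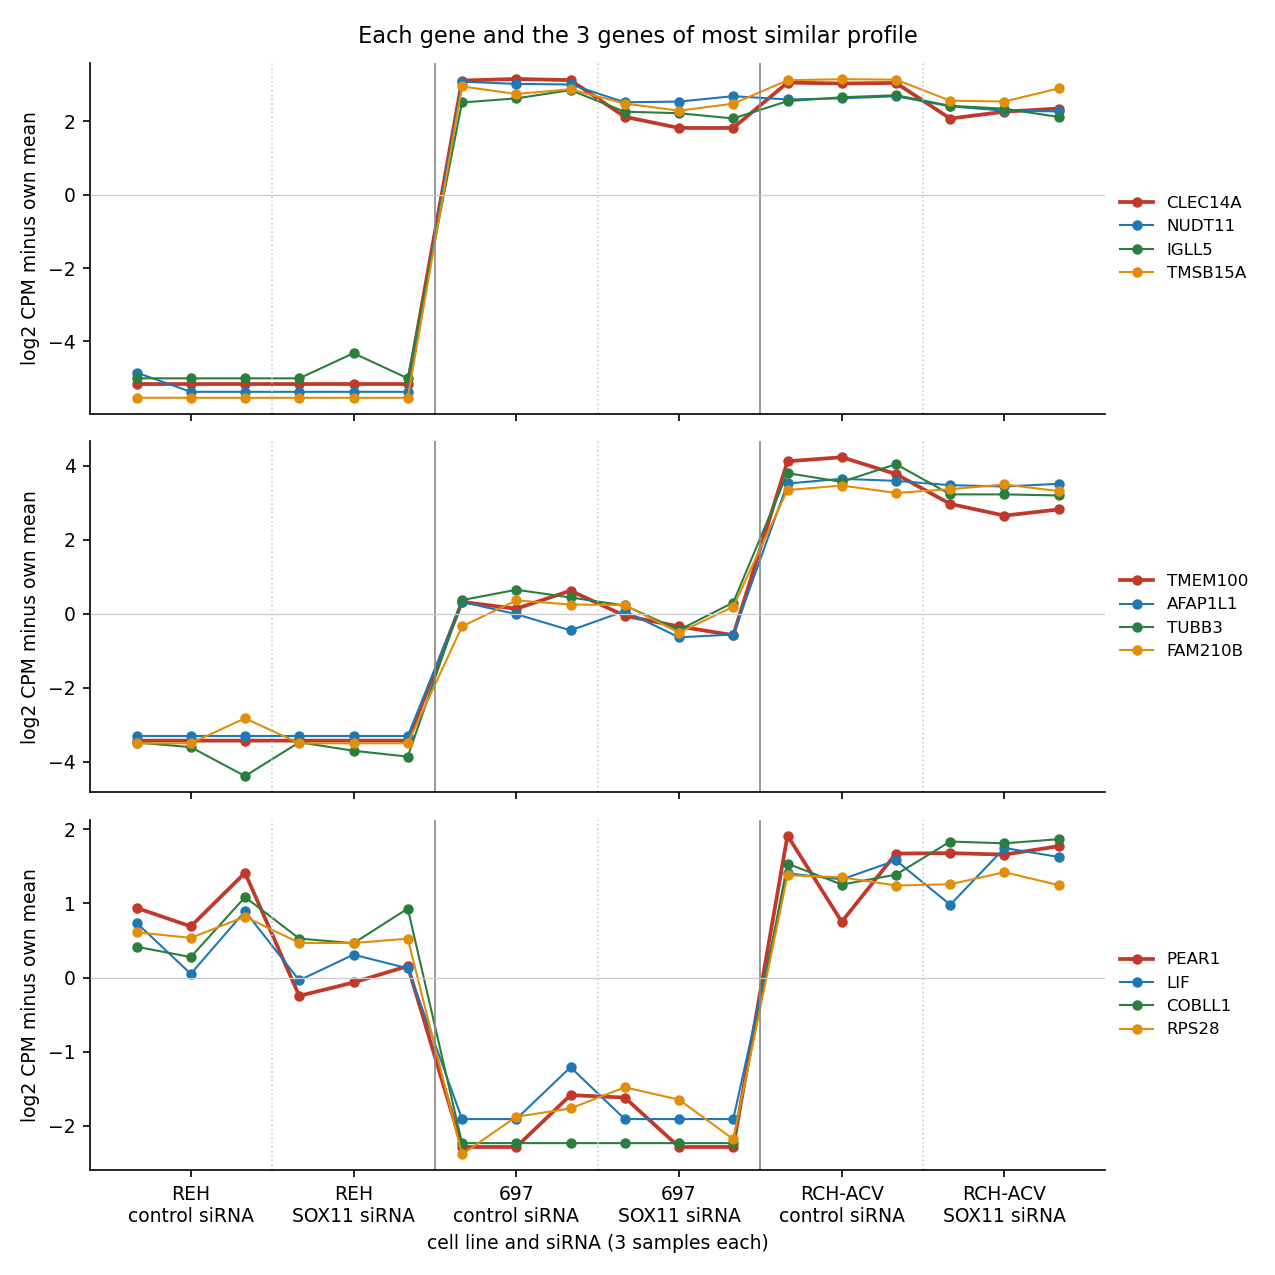
Log2 CPM minus each gene's own mean over the 18 samples (vertical axis) for *CLEC14A*, *TMEM100* and *PEAR1* in red and the 3 genes most alike to each, with samples ordered by line and siRNA along the horizontal axis (3 each); lines only join the points of a gene. *CLEC14A* and its 3 nearest genes are lowest in REH, *TMEM100* and its nearest rise from REH to 697 to RCH-ACV, and *PEAR1* and its nearest are lowest in 697.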

How the data were processed

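Total RNA of 18 samples (3 lines, 2 siRNAs, 3 samples each) was sequenced from stranded mRNA libraries. Per the study and the submitters' processing notes, the authors checked reads with FastQC 0.10.1, used STAR 2.5.3a for alignment to hg19, and ran HOMER to count reads per RefSeq transcript. For each line the deposited values are these raw counts, not normalized. The tables held 0 columns of other samples. RefSeq identifiers were matched to symbols for 98.0% of 50678 transcripts (99.0% of counts), transcripts without a symbol stayed as rows of their own, and each gene was represented by whichever of its transcripts had most counts in all 18 samples. *SHANK3*, on 1 of the lists, was not matched.

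Separate fits were made per line in edgeR 4.0.16 (R 4.3.3) (TMM, filterByExpr, quasi-likelihood F-test, two-sided, Benjamini-Hochberg adjusted p under 0.05 over all genes tested). The 9 control samples were fitted the same way between lines. CPM values used TMM factors over the 18 samples, and log2 CPM used a prior count of 2. P-values measure the spread between the 3 samples of a group.

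The 3 genes, the lists and the markers were chosen with earlier results of these data known. Named were *SOX11*, the 3 genes, every listed gene that passed in a line, 6 defining endothelial markers, the nearest gene on each side (1 of which is not reported here), and the 3 genes of most similar profile. List members with high or low levels that describe a pathway were named after their values were seen (*CD93*, *CD248*, *MMRN2*, *ACVRL1*, *BMPR2*, *ID1*, *ID2*, *ID3*, *MEGF6*, *MEGF10*, *MEGF11*). The same holds for *FLI1* and for the B-cell precursor, myeloid and stromal markers. The lists were endothelial identity genes, endothelial transcription factors, group XIV lectins and their ligands, BMP9-ALK1 signalling, the genes around *PEAR1* and angiogenic ligands.

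Marker lists of other cell types were fibroblast and stromal (16.3 to 206 CPM summed over 6 genes), myeloid (2.35 to 31.0 CPM) and T cell (0 to 0.287 CPM). Most of the stromal sum was *PDGFRB*, at 16.6 CPM in REH controls, 102 CPM in 697 controls and 178 CPM in RCH-ACV controls. *COL3A1*, *DCN* and *LUM* were at 0 in every library, and *COL1A2* was at 0 in REH and 697. As alternatives, the scaling was by RLE or by library size only, the test was that of DESeq2 1.42.0, and further settings were other filters on low counts, the replicate number as a covariate, a choice of transcript within each line, 1 fit over the 18 samples, leaving out each sample, and, for the control levels, the 9 *SOX11* siRNA samples. The fits were tested on simulated data. Plots were made with Python 3.11.15 and matplotlib 3.10.9.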

Additional observations from a re-analysis of the deposited data

Results flagged for a closer look

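*ITGB1*, the integrin beta 1 chain listed around *PEAR1*, responded differently in the 3 lines (edgeR's quasi-likelihood test of the difference over 14026 genes, adjusted p = 0.000259). Its log2 fold change with *SOX11* siRNA was 0.34 for REH, -0.08 for 697 and -0.21 for RCH-ACV. The test was chosen after seeing the data and was run for 17 listed genes called in any line, of which *ITGB1* alone passed.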

How the results depend on the processing

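Over 14 alternatives the log2 fold change of *CLEC14A* stayed between -1.32 and -1.16 in 697 and between -0.85 and -0.75 in RCH-ACV, that of *TMEM100* between -0.92 and -0.61 in 697 and between -1.397 and -1.17 in RCH-ACV, and that of *PEAR1* in REH between -1.39 and -0.9955. *PEAR1* in RCH-ACV lay between -0.11 and 0.42, and changed sign to -0.11 without control replicate 2. Of the control levels, *CLEC14A* in RCH-ACV minus 697 was 0.32 in the 9 *SOX11* siRNA samples against -0.08 in the controls, a description only, since the genes were selected on the siRNA samples. *PEAR1* in RCH-ACV minus REH passed with no filter on low counts (0.62, adjusted p = 0.0442), was 1.97 in the *SOX11* siRNA samples, again a description, and ranged from 0.36 to 0.89 with 1 sample left out. The other 7 control comparisons kept their direction under 13 alternatives. For *CLEC14A* and *TMEM100* against REH, with 0 counts there, the direction could not change. For *PEAR1* against 697, with 1 count over the 3 control samples, it could hardly change. *TMEM100* in RCH-ACV minus 697 lay between 3.27 and 3.92.

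Listed genes called were 3 with DESeq2 against 6 in REH (3 to 7 with 1 sample left out), 2 with no filter and 2 with 1 fit over the 18 samples against 1 in 697 (0 to 1), and 6 with DESeq2 against 12 in RCH-ACV (5 to 20). Replicate numbers did not pair the samples: same-numbered samples had deviation correlations between -0.24 and 0.26, and not every pair was above 0.1. With the replicate block 5, 0 and 7 listed genes were called in REH, 697 and RCH-ACV. All genes called were 594 in REH (313 with DESeq2, 228 with 1 fit, 296 to 522 with 1 sample left out), 68 in 697 (119 with no filter, 29 with the block, 189 with 1 fit, 25 to 70) and 973 in RCH-ACV (582 with DESeq2, 386 to 2479, the highest without *SOX11* siRNA replicate 3). The cause of these shifts was not tested. Counts were low for *PEAR1*, with 6 to 52 a sample in the lines where it was read, and for *TMEM100* in 697, with 12 to 25.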
